A study of Canis lupus familiaris with 9 samples.

Results

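The genes of fatty acid oxidation, of the carnitine shuttle that feeds it and of acyl-CoA handling around it were examined in skeletal muscle of dogs that ate without restriction and of dogs held at constant weight. The set holds 36 genes, taken by symbol from the 15115 genes that the platform annotation names by a single symbol. Of these, 35 had at least 1 probe set of their own and ACOT2 had none. Where a gene had several, the brightest on average across the 9 arrays stood for it. All dogs were intact female beagles, 4 years old, given 1 commercial diet and sampled at 24 weeks after an overnight fast. Animals 2, 5, 6, 7 and 8 ate ad libitum (n = 5), and animals 1, 3, 4 and 9, the controls, were fed to keep baseline body weight (n = 4). Each dog had 1 Affymetrix canine array. Feeding was assigned at random. The labels do not name the muscle that was sampled.

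Long-chain fatty acids are joined to coenzyme A by acyl-CoA synthetases and pass the inner mitochondrial membrane only as carnitine esters. Carnitine palmitoyltransferase 1 makes these esters and is inhibited by malonyl-CoA, which makes it a control point for how much fat muscle burns. In the matrix each turn of β-oxidation takes a dehydrogenation, a hydration, a second dehydrogenation and a thiolysis, and the electrons of the first step reach ubiquinone through the electron transfer flavoprotein. Peroxisomes shorten very long chains by related enzymes, and working muscle also burns ketone bodies, which the liver makes from fatty acids.

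Values are log2 GCRMA values, that is background-corrected and quantile-normalized brightness summarised per probe set, and differences are ad libitum minus control on that scale. A gene was called at an adjusted p under 0.05 in limma, with Benjamini-Hochberg adjustment over the 18394 probe sets tested. All 35 measured genes lay above the log2 4 filter on 9 of 9 arrays, so none entered the test through 1 group alone. Array pairs correlated at r = 0.976 to 0.994 over all probe sets. The control probe sets for GAPDH, read as the 3′ minus 5′ value, gave 2.14 to 2.29 in ad libitum and 1.96 to 2.22 in control dogs. Defining genes of muscle fibres (ACTA1, MB, DES, MYOT and TTN) were present on every array at a nearly constant summed level, 17.82 to 17.98 in ad libitum and 17.87 to 17.95 in control dogs.

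The carnitine transporter SLC22A5 and the ketone-using enzyme OXCT1 had lower means and CPT1A and ACOT8 had higher means in ad libitum muscle. For the other 31 genes the 95% interval of the difference, unadjusted, crossed 0. None of the 35 genes passed the test (limma, lowest adjusted p = 0.796), and 0 of all probe sets did. The 4 genes named first had an unadjusted limma p under 0.05, which is 11.4% of the genes, against 5.91% of all tested probe sets. By direction they were 2 higher and 2 lower, 5.71% each, against 3.71% and 2.21% of all probe sets. The groups did not overlap for SLC22A5 and OXCT1, 5.71% of the genes against 1.44% of all probe sets. Both were lower, where all probe sets gave 0.696%, and 0 genes were apart in the other direction, against 0.739%. Means were higher in ad libitum dogs for 21 genes, or 60.0% against 48.4% of all probe sets, and lower for 14. The median difference was 0.068, against -0.0082 over all tested probe sets. Opposite directions cancel in that median. Without regard to sign, the median size of the difference was 0.18, against 0.15 over all tested probe sets.

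For most members the fit also bounds the difference. The 95% interval of the difference, unadjusted, lay inside a 2-fold change either way for 29 of the 35 genes and inside a 1.5-fold change for 13. The 29 include ACADL and ACSL5, and the 13 include ACADL, whose values lie close to the filter. Intervals of these genes say little about the transcript. Of the 35, SLC22A5, CPT1A and OXCT1 were the 3 that differed by more than 0.5. The median standard error was 0.202, against 0.197 over all probe sets.

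**Figure D1:**
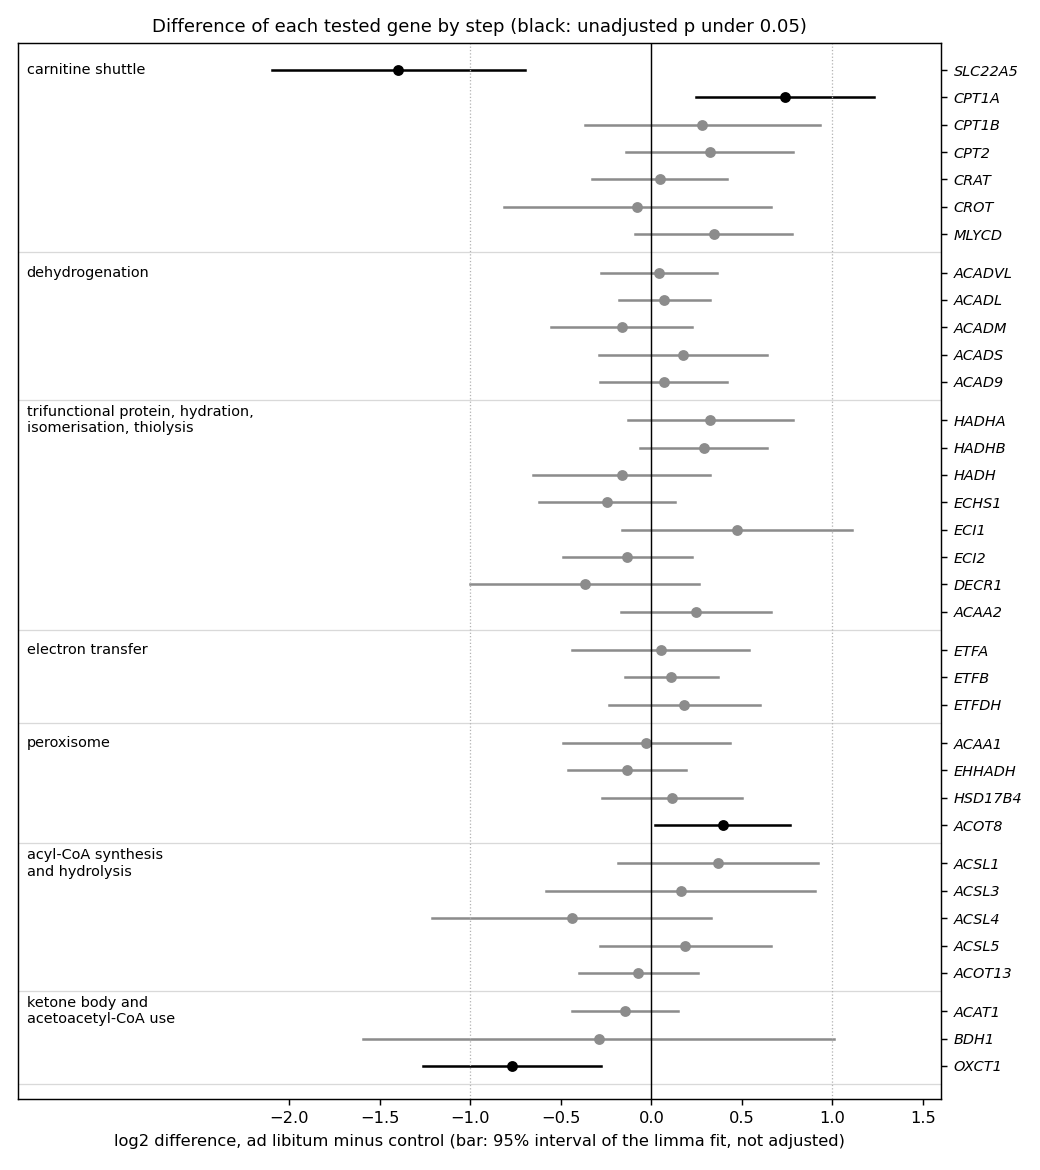
Log2 difference, ad libitum minus control, of the 35 tested genes, grouped by step, with the 95% interval of the limma fit (unadjusted, n = 5 and 4 dogs). Black marks an unadjusted p under 0.05: SLC22A5 and OXCT1 lie left of 0 and CPT1A and ACOT8 right of it, and the other 31 intervals cross 0.

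SLC22A5 encodes OCTN2, the sodium-dependent transporter that brings carnitine into muscle cells. SLC22A5 stood at 5.04, 4.26, 5.46, 5.98 and 5.16 in ad libitum dogs 2, 5, 6, 7 and 8, the order kept below. The control dogs 1, 3, 4 and 9, also in the order kept below, held it at 6.69, 6.27, 6.41 and 6.93. All 5 ad libitum dogs lay below the lowest control dog, and dog 7 came nearest to it. The means were 5.18 ± 0.63 (SD, n = 5) and 6.58 ± 0.29 (SD, n = 4), a log2 difference of -1.40 (SE 0.31), or 2.63-fold lower in linear terms. The ad libitum values lie close to the log2 4 filter, where GCRMA values are uncertain, so the size of this difference is uncertain too. In limma the unadjusted p was 0.00134, the 10th smallest of the 18394, and the adjusted p was 0.796. With 1 dog left out at a time the difference ran from -1.60 without ad libitum dog 7 to -1.17 without ad libitum dog 5, and the groups stayed apart in 9 of 9 such fits. Without dog 7, the ad libitum dog nearest to the controls, its adjusted p was 0.0997 (limma). That was the lowest adjusted p of these fits, and the highest was 0.999955.

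A separate probe set of SLC22A5 gave 4.02, 4.75, 5.10, 5.93 and 4.92 in ad libitum dogs against 6.11, 5.78, 6.17 and 6.93 in control dogs. Its difference of -1.30 (SE 0.36) was close to the first, but here dog 7 lay above control dog 3. Both probe sets read the same RNA of the same dogs and so are not independent evidence. In bulk muscle, fewer cells of a type and less RNA per cell cannot be told apart. Markers of other cell types differed among the same dogs. The summed level of 8 fibroblast genes, as log2 of the sum of linear values, was 12.86 to 16.78 in ad libitum and 12.73 to 14.18 in control dogs, with 8 of 8 members higher in mean. That of 10 macrophage genes was 7.95 to 11.98 against 7.59 to 8.84, with 5 of the 5 tested members higher, while CD68, CSF1R, TYROBP, AIF1 and FCER1G did not pass the filter. That of 12 adipocyte genes was 13.76 to 15.33 against 13.46 to 14.94, with 10 of 12 higher. Members of a list are read in the same dogs, so these counts are not independent results. Ad libitum dog 5 had the highest fibroblast and macrophage sums and the lowest SLC22A5 in the first probe set, but in the second dog 2 was lowest. Dog 7, with the highest SLC22A5 of its group in both probe sets, had the lowest sums of its group for all 3 lists. Control dog 1 exceeded dog 7 on all 3 sums, at 14.18, 8.84 and 14.94, and also for SLC22A5. The part of these cells in the SLC22A5 difference was not tested.

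**Figure D2:**
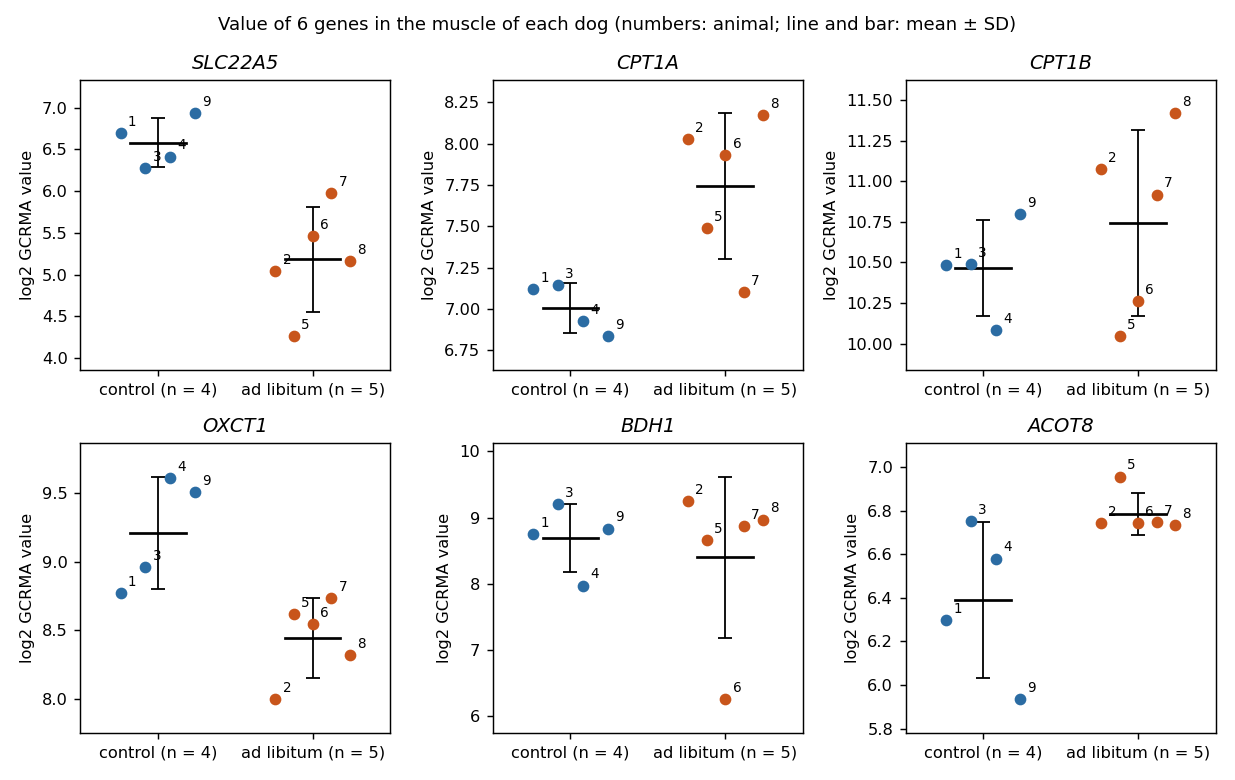
Log2 GCRMA value of 6 genes in each dog, with the animal number beside each point and the group mean ± SD as line and bar (4 control and 5 ad libitum dogs). Ad libitum dogs lie wholly below control dogs for SLC22A5 and OXCT1, ad libitum dog 7 lies among the controls for CPT1A, and dog 6 stands apart at 6.25 for BDH1.

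The outer-membrane palmitoyltransferases had higher means in ad libitum dogs, more so the form that is widespread in other tissues than the muscle form. CPT1A, the form of liver and many other cells, held 8.03, 7.49, 7.93, 7.10 and 8.17 in ad libitum dogs and 7.12, 7.14, 6.92 and 6.84 in control dogs. Dogs 2, 5, 6 and 8 lay above every control dog, and dog 7 lay inside the control range. The difference was 0.74 (SE 0.22), 1.67-fold in linear terms, with an unadjusted limma p of 0.00781 and an adjusted p of 0.796. It ran from 0.63 without ad libitum dog 8 to 0.90 without ad libitum dog 7, the 1 dog whose removal left the groups apart. The other probe set of CPT1A lay near 2.1 on every array and was not tested, so the difference rests on a single probe set. Of the ad libitum dogs, dog 7 had the lowest fibroblast, macrophage and adipocyte sums and the lowest CPT1A. Dog 5, with the highest fibroblast and macrophage sums, had the next lowest CPT1A, and the highest CPT1A was in dog 8, with sums of 14.96, 9.41 and 14.97 in that order. The part of other cell types in the CPT1A difference was not tested.

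CPT1B, the muscle form, read 11.07, 10.05, 10.26, 10.92 and 11.42 against 10.49, 10.49, 10.08 and 10.80. Its highest values were in ad libitum dogs 8, 2 and 7, but dog 5 lay below all controls and dog 6 below 3 of them, so the groups overlapped. The CPT1B difference was 0.28 (SE 0.29), and 0.11 without ad libitum dog 8. Its interval, -0.37 to 0.93, contains both 0 and the CPT1A estimate. CPT1A minus CPT1B was not tested as a contrast.

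CPT2, which returns the acyl group to coenzyme A inside the inner membrane, measured 12.27, 12.04, 11.42, 12.38 and 11.75 against 11.56, 11.67, 11.47 and 11.89. Dogs 2, 5 and 7 lay above all control dogs and dog 6 below them. The difference was 0.32 (SE 0.20). MLYCD, malonyl-CoA decarboxylase, which removes the inhibitor of CPT1, differed by 0.34 (SE 0.19), and 5 of 5 ad libitum dogs exceeded the control mean. Ad libitum dog 7 held MLYCD at 13.42 and the other 4 between 12.49 and 12.74, and without dog 7 the difference was 0.18. CRAT, which moves acetyl groups between carnitine and coenzyme A, differed by 0.05 (SE 0.17), and CROT, the peroxisomal carnitine octanoyltransferase, by -0.08 (SE 0.33). The sign of both turned when single dogs were left out.

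The acyl-CoA dehydrogenases, which open each turn of β-oxidation and differ in the chain length they take, differed by no more than 0.17 in either direction. ACADVL, for very long chains, held 13.41, 13.19, 13.14, 13.66 and 13.50 against 13.42, 13.52, 13.14 and 13.27. The groups covered nearly the same range, with a difference of 0.04 (SE 0.14) and an interval from -0.28 to 0.36. ACADM, the medium-chain enzyme, had the lowest p of this step and read 13.05, 13.44, 13.76, 13.81 and 13.71 against 13.85, 13.49, 13.78 and 13.76. Only dogs 2 and 5 lay below the control range, and the difference was -0.16 (SE 0.17), or -0.04 without ad libitum dog 2. ACADS, for short chains, differed by 0.17 (SE 0.21), or 0.07 without ad libitum dog 2, and ACAD9, which also serves in complex I assembly, by 0.07 (SE 0.16). ACADL had values of 4.56 to 5.01 in all 9 dogs, close to the filter, so its difference of 0.07 (SE 0.11) says little about the transcript.

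The mitochondrial trifunctional protein, which carries out the last steps of the turn for long chains, consists of an α subunit from HADHA and a β subunit from HADHB. HADHA stood at 12.39, 11.63, 12.12, 12.47 and 12.61 in ad libitum dogs and 12.03, 11.66, 11.96 and 12.04 in control dogs. Dogs 2, 6, 7 and 8 lay above all controls and dog 5 below them, for a difference of 0.33 (SE 0.20). HADHB gave 13.30, 12.96, 13.39, 13.35 and 13.49 against 12.94, 12.73, 13.34 and 13.02, a difference of 0.29 (SE 0.16) with an unadjusted limma p of 0.094. Dogs 6, 7 and 8 lay above all controls, and control dog 4 lay above dogs 2 and 5. Without ad libitum dog 5 the HADHA difference was 0.48 and the groups did not overlap, and without control dog 3 the HADHB difference was 0.20. The estimates of the subunits were of similar size, and neither passed the test.

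The single-function enzymes of the matrix went in both directions. ACAA2, the thiolase of the last step, differed by 0.25 (SE 0.18) and ECI1, an enoyl-CoA isomerase needed for unsaturated chains, by 0.47 (SE 0.28). The ECI1 value was lowest in control dog 3, at 8.80, and without that dog the difference was 0.26. Lower means were found for HADH, the short-chain hydroxyacyl-CoA dehydrogenase, at -0.16 (SE 0.22), and for ECHS1, the short-chain hydratase, at -0.24 (SE 0.17). ECI2, a further isomerase, differed by -0.13 (SE 0.16). DECR1, the dienoyl-CoA reductase for polyunsaturated chains, differed by -0.37 (SE 0.28), and 0 of 5 ad libitum dogs exceeded the control mean. Its lowest value, 9.58, was in ad libitum dog 5, against 10.67 to 10.83 in the other 4, and without dog 5 the difference was -0.13. Single dogs moved other members too: without control dog 4 HADH differed by -0.05 and ECI2 by -0.0066, without ad libitum dog 8 ECHS1 differed by -0.12, and without control dog 3 ACAA2 differed by 0.14. Of the 8 genes of this step 4 had higher and 4 lower means, with a median difference of 0.058.

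Electron transfer genes had higher means by amounts that were small and, for ETFA, turned sign with array weights (-0.10) and without control dog 3 (-0.13) or ad libitum dog 2 (-0.04). ETFA and ETFB encode the subunits of the electron transfer flavoprotein and differed by 0.05 (SE 0.22) and 0.11 (SE 0.11). ETFDH encodes the oxidoreductase that passes its electrons to ubiquinone. ETFDH read 12.58, 12.76, 13.04, 13.37 and 13.15 against 12.82, 12.46, 13.03 and 12.86. Dogs 6, 7 and 8 lay above the highest control and dog 2 was below 3 of the 4 controls, so the groups overlapped, with a difference of 0.18 (SE 0.19). A further probe set of ETFDH had a difference of -0.08. ETFB varied little among dogs, from 11.68 to 12.14 over all 9, and its interval of -0.15 to 0.37 lies inside a 1.5-fold change. Without ad libitum dog 2 the ETFB difference was 0.06, and without control dog 3 that of ETFDH was 0.07.

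Peroxisomal members differed by at most 0.14 in either direction except for ACOT8, a thioesterase that frees fatty acids from coenzyme A there. ACOT8 held 6.74, 6.96, 6.74, 6.75 and 6.73 in ad libitum dogs against 6.30, 6.75, 6.58 and 5.93 in control dogs. The ad libitum dogs lay close together, and control dog 3 reached their level. Dogs 2 and 6 held 1 identical value. A further ACOT8 probe set gave an identical 6.02 in control dog 1 and ad libitum dogs 6 and 8. The closeness of the ad libitum values therefore says little about the transcript. The difference was 0.39 (SE 0.17), with an unadjusted limma p of 0.0398 and an adjusted p of 0.796, and it was 0.24 without control dog 9. The other 2 probe sets of ACOT8 had 0.13 and 0.18, and their mean with the first had 0.24. ACAA1, the peroxisomal thiolase, differed by -0.03 (SE 0.21). EHHADH and HSD17B4, the bifunctional enzymes of the straight-chain and the branched-chain and very-long-chain routes, differed by -0.14 (SE 0.14) and 0.11 (SE 0.17). Leaving out control dog 3 gave -0.05 for EHHADH, and leaving out ad libitum dog 8 gave 0.03 for HSD17B4. In ACAA1 the 4 control dogs lay within 10.14 to 10.30 while ad libitum dogs ran from 9.85 in dog 7 to 10.93 in dog 2.

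Among the long-chain acyl-CoA synthetases, which activate fatty acids, ACSL1 is the main form of muscle and fat. ACSL1 was measured at 12.61, 12.90, 13.53, 13.56 and 13.00 against 12.46, 12.47, 13.26 and 12.82. Dogs 6 and 7 lay above all controls, and control dog 4 lay above dogs 2, 5 and 8. Its difference of 0.37 (SE 0.25) was nearly the same in all 3 probe sets, 0.34 to 0.37. ACSL3, a form found on lipid droplets, differed by 0.16 (SE 0.33), and its 5 probe sets ran from -0.07 to 0.20. ACSL4, which prefers arachidonate, differed by -0.44 (SE 0.34), and by -0.08 without control dog 9, which held the highest value of 6.20. The other ACSL4 values, 4.34 to 5.06, lay close to the filter, so the ACSL4 difference says little about the transcript. ACSL5 had 1 identical value on 5 of the 9 arrays, close to the filter, so its difference of 0.19 (SE 0.21) carries little information. ACOT13, a mitochondrial thioesterase, differed by -0.07 (SE 0.15).

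The 3 genes of ketone body and acetoacetyl-CoA use all had lower means in ad libitum muscle, OXCT1 the most. OXCT1 encodes succinyl-CoA:3-ketoacid CoA transferase, the step that commits acetoacetate to oxidation outside the liver. OXCT1 stood at 8.00, 8.62, 8.54, 8.74 and 8.32 in ad libitum dogs and at 8.77, 8.96, 9.61 and 9.51 in control dogs. The groups did not overlap, although dog 7 and control dog 1 were separated by little, and control dogs 4 and 9 were the highest. Means were 8.44 ± 0.29 (SD, n = 5) and 9.21 ± 0.41 (SD, n = 4), a difference of -0.77 (SE 0.22), 1.70-fold lower in linear terms. Its unadjusted limma p was 0.00613 and its adjusted p 0.796. The difference stayed between -0.92, without control dog 1, and -0.64, without control dog 4.

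All 4 probe sets of OXCT1 had differences from -0.91 to -0.64, each with an unadjusted limma p under 0.05, the highest being 0.0301. They read the same RNA of the same dogs and so are not independent evidence. The dimmest of the 4 read 3.98 to 4.28 in ad libitum dogs, close to the filter. Control dogs 1 and 3 held 4.35 and 4.28 there, so its difference rests on control dogs 4 and 9, at 5.72 and 5.40. The groups were apart in 1 of the 4, the others having control dog 1 or 3 at or below the highest ad libitum dogs. Dog 7, nearest to the controls for OXCT1, had the lowest fibroblast, macrophage and adipocyte sums of its group, but dog 5, with the highest fibroblast and macrophage sums, was next nearest. The lowest OXCT1 was in dog 2, and control dog 1 lay above dog 7 for OXCT1 and on all 3 sums. The part of other cell types in the OXCT1 difference was not tested.

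BDH1, which interconverts β-hydroxybutyrate and acetoacetate, had no clear group difference but the widest spread of the set. BDH1 read 9.25, 8.65, 6.25, 8.87 and 8.97 against 8.75, 9.20, 7.97 and 8.83. Ad libitum dog 6 lay far below all other dogs and control dog 4 was the next lowest. Dog 6 was also the lowest in each of the 5 BDH1 probe sets, at 4.64, 4.45, 4.98 and 3.31 in the other 4, and control dog 4 was next in each, at 5.31, 6.07, 5.34 and 5.04. The difference was -0.29 (SE 0.58), and 0.25 without dog 6. ACAT1, the mitochondrial thiolase that splits acetoacetyl-CoA, differed by -0.15 (SE 0.13), or -0.04 without control dog 4, with both of its tested probe sets at about that value.

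Probe sets of 1 gene gave the same direction for 21 of the 29 genes that had several tested, and both directions for 8. The 8 were CROT, ACAD9, ETFDH, ACAA1, HSD17B4, ACSL3, ACSL5 and BDH1, whose probe sets all had differences below 0.30 in size. In all, 87 probe sets of the 35 genes were tested.

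**Figure D3:**
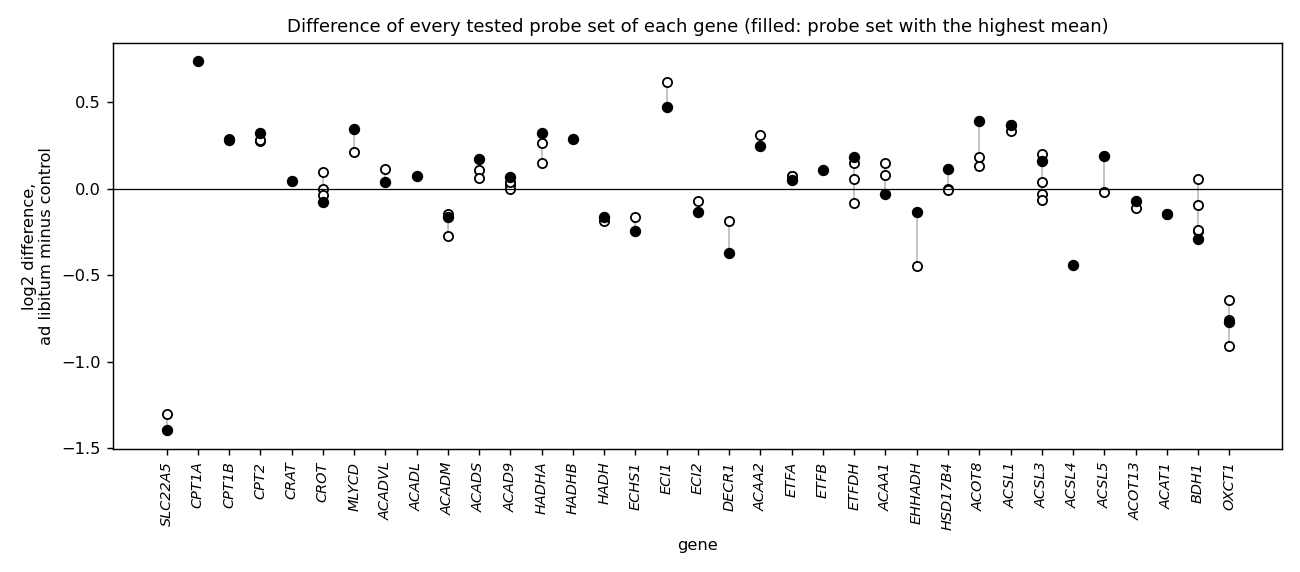
Log2 difference, ad libitum minus control, of each of the 87 tested probe sets of the 35 genes, with the probe set of highest mean filled and the others open. Both probe sets of SLC22A5 lie at or below -1.30, the 4 of OXCT1 lie between -0.91 and -0.64, and the probe sets of 8 genes fall on both sides of 0.

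Dogs differed within groups in which steps were high or low. Ad libitum dog 5 was below the control mean in 28 of 35 genes and the lowest of the 9 dogs in 8, and control dog 3 was the lowest in 7. Ad libitum dog 7 was the highest in 8 genes and dogs 2 and 8 in 6 each. The median deviation from the control mean ran from -0.10 in dog 5 to 0.11 in dog 8 in the ad libitum group, and from -0.13 in dog 3 to 0.07 in dog 9 in the control group, so the groups overlapped. For electron transfer, control dog 3 had a median deviation of -0.33 and ad libitum dog 2 one of 0.33. In the carnitine shuttle the highest median, 0.53, was in ad libitum dog 7. The SD was larger among ad libitum dogs for 25 of the 35 genes, where 61.0% of all tested probe sets had that direction.

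**Figure D4:**
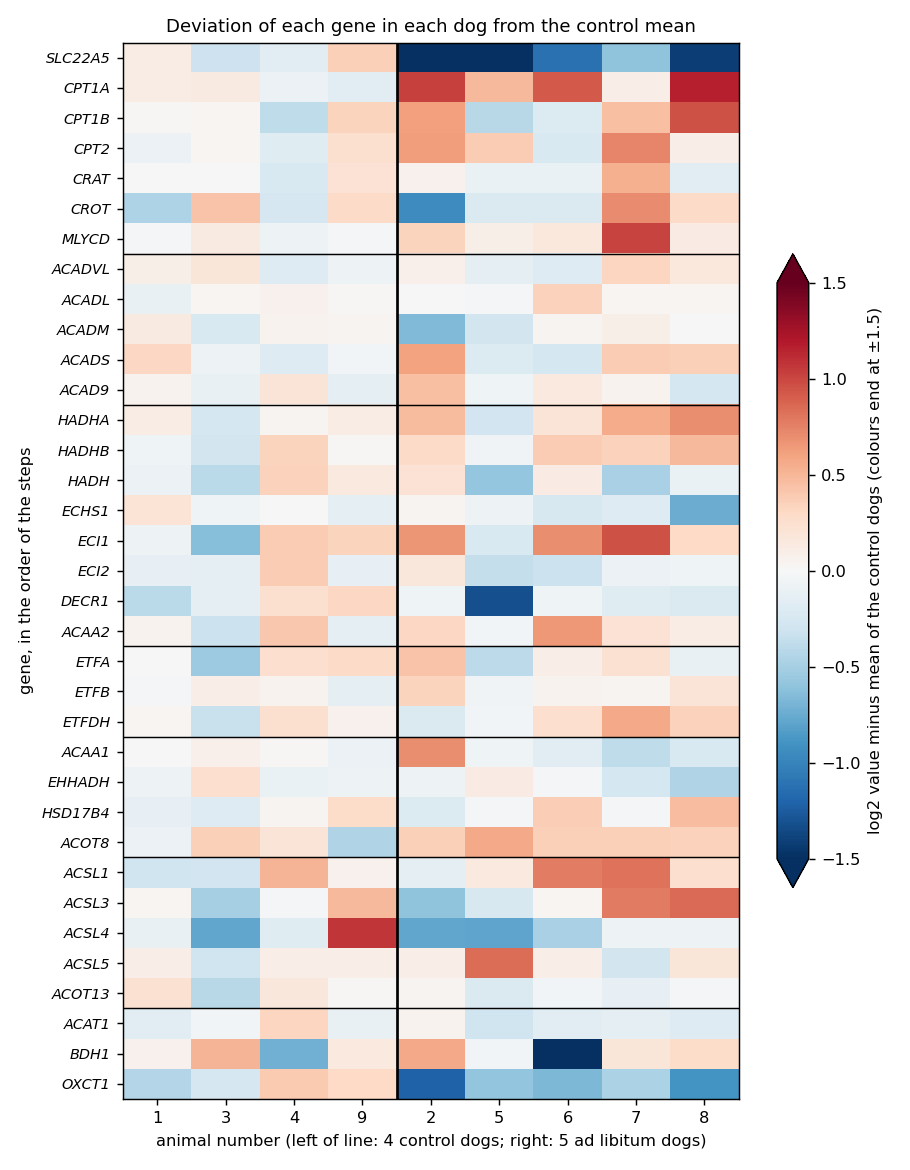
Log2 value of each of the 35 genes (rows, in the order of the steps) in each dog (columns, 4 control then 5 ad libitum) minus the mean of the control dogs, in colours that end at ±1.5. SLC22A5 and OXCT1 are below the control mean in 5 of 5 ad libitum dogs, CPT1A above it in 5 of 5, and dogs 5 (DECR1), 6 (BDH1) and 7 (MLYCD) each show 1 gene far from the rest of their group.

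The oxidative capacity of muscle also depends on its fibre types, so fibre genes were read in the same dogs. The summed level of slow fibre genes was 18.09 to 18.36 in ad libitum and 18.06 to 18.25 in control dogs, with 7 of 7 tested members higher in mean and a median difference of 0.10. That of fast fibre genes was 17.92 to 18.64 against 18.33 to 18.66, with 9 of 9 tested members lower and a median difference of -0.15. Genes of a list are read in the same dogs, so these counts are not independent results. No tested gene of either fibre list had groups apart, and the lowest unadjusted limma p was 0.146. Sum and median hide wider spreads in ACTN3, at -1.06 (SE 0.76), and MYH1, at -1.01 (SE 1.05). MYH1 was 10.94 and 10.64 in ad libitum dogs 6 and 8, but 15.09 and 15.43 in dogs 5 and 7, against 13.16 to 15.28 in control dogs. ACTN3 was 10.4 in dog 8 against 13.83 to 14.70 in control dogs. The lowest fast fibre sum was in dog 8, which had the highest CPT1B, HADHA and HADHB. Dog 7, with the highest fast fibre sum of its group (18.64), had the next highest HADHA, and control dog 9, with the highest of all (18.66), had the highest CPT1B of the controls. The part of fibre type in the differences of these genes was not tested.

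Beyond the set, 83 further genes of fatty acid supply, carnitine synthesis, flavin supply, peroxisomes and regulation were listed, of which 52 were tested. None passed (limma), and their median difference was 0.041. Of the 52, 1 was higher and 2 were lower at an unadjusted limma p under 0.05. Among all tested probe sets 3.71% were higher and 2.21% lower at that p. Taken in both directions, the count among the 52 is close to the 5.91% of all tested probe sets. Of the 13 tested genes of acyl-CoA supply and transport, 8 had higher and 5 lower means. ACSL6, a further long-chain synthetase, differed by -0.56 (SE 0.25) and SLC27A1, a fatty acid transport protein of muscle, by -0.32 (SE 0.17). The 3 tested genes of carnitine synthesis were higher in mean, ALDH9A1 by 0.25 (SE 0.18), SHMT1 by 0.19 (SE 0.26) and SHMT2 by 0.16 (SE 0.21). In the flavin and further dehydrogenase list 3 of 7 were higher, with GCDH, of lysine breakdown, at -0.51 (SE 0.29). In the list of other oxidation and ketone genes 3 of 3 were lower, with HSD17B10 at -0.12 (SE 0.14).

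Peroxisomal proteins outside the set had higher means in 9 of 14 and a median difference of 0.041, with AMACR, a racemase for branched chains, at -0.30 (SE 0.13) and catalase, CAT, at 0.18 (SE 0.12). Of 12 tested regulators and their known targets 7 were higher. ANGPTL4, an inhibitor of lipoprotein lipase and a target of the fatty acid receptors PPAR, had the largest difference of that list, 1.43 (SE 0.41), with an unadjusted limma p of 0.00689 and an adjusted p of 0.796. PRKAA2, a catalytic subunit of the energy sensor AMPK, differed by -0.46 (SE 0.27) and SIRT3, a mitochondrial deacetylase, by 0.25 (SE 0.15).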

How the data were processed

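Muscle RNA of 9 dogs was hybridised to 1 Affymetrix array each after Trizol extraction and biotin labelling by 3′ amplification, per the labels' protocols. GCRMA, named without a version in the submitters' processing notes, was the method by which the authors made the deposited values, taken here as log2. No source used here states the log base, and log2 was read from the range of 0.652 to 16.6. Quantile normalization in GCRMA would hide a shift of most transcripts in 1 group, and values near background are uncertain in size. Arrays have no read depth, and their number limits the precision.

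Groups come from the sample titles and replicate numbers are animal numbers, which the groups do not share. The labels name no batch. Of 43035 probe sets, 111 controls were left out and the 18394 above log2 4 on at least 4 arrays entered a two-sided linear model in limma (version 3.58.1, R 4.3.3, default eBayes, 7 residual and 2.32 prior degrees of freedom). Genes were named from the platform annotation of 2016, and 439 probe sets with several symbols were not named.

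The members and lists were chosen with earlier results of these data known, so lists are described by counts and medians without a test. Values of every dog are given for genes whose groups do not overlap, those with an unadjusted p under 0.05, the lowest p of each step, and CPT1B, CPT2, ACADVL, ACADM, HADHA, HADHB and ETFDH. BDH1 was added after its values were seen. Genes outside the set are named at most 3 per list, by lowest p, apart from marker genes of cell types and fibres. MYH1 and ACTN3 were named after their values were seen. Alternatives were other filters, a floor, cyclic loess, median centring, eBayes with trend or robust estimation, array weights, gene means over probe sets and leaving out each dog. At the stricter filter of log2 6, SLC22A5 passed through the 4 control dogs alone, as its highest ad libitum value was 5.98. That setting is therefore no support for SLC22A5. The limma step was tested on simulated data. Promoter and protein sequences were not analysed here.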

Additional observations from a re-analysis of the deposited data

Results flagged for a closer look

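In 8 of the 70 sets formed by 1 gene and 1 group, the extreme dog's gap to its neighbour exceeded Dixon's 95% critical value for that number of dogs, where chance gives about 1 in 20. Ad libitum dog 6 held BDH1 at 6.25 against 8.65 in the next dog. Ad libitum dog 5 held DECR1 at 9.58 against 10.67 in the next dog, and ACOT8 at 6.96, above the other 4 at 6.73 to 6.75. Of those 4, dogs 2 and 6 shared 1 identical ACOT8 value. Ad libitum dog 7 held MLYCD at 13.42, above the next at 12.74, and dog 6 held ACADL at 5.01, above the next at 4.70. Among controls, dog 4 was high for ECI2, at 12.29 against 11.79, and dog 3 was high for EHHADH, at 9.66 against 9.34. Control dog 3 was low for ACSL5, at 4.83, where the other 3 controls held 1 identical value of 5.22.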

How the results depend on the processing

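Over 18 alternative settings, 0 members passed an adjusted p of 0.05. Members at an unadjusted p under 0.05 numbered 3 to 6 with 1 dog left out and 3 with gene means over probe sets. The count with groups apart was 2 to 4 with 1 dog left out and 3 with median centring. Shares over all probe sets under these settings are not given here, so neither count can be set against a background. With fewer dogs that background can change too. The median difference ran from 0.048 to 0.11 with 1 dog left out and was 0.0071 with array weights. Over all probe sets 1 was called with the floor at log2 4, and 0 to 1 with 1 dog left out. Of 627 member values under these settings, 606 kept their direction and stayed uncalled, and 21 values of 9 genes turned sign. Other filters, the floor and the eBayes options leave the difference of a member as it was, so those values could not turn sign. The 606 is therefore no measure of how stable the directions are. With array weights the differences of CRAT, ETFA and ACSL3 were -0.0404, -0.104 and -0.00651, and with gene means that of ACAA1 was 0.0679. With 1 dog left out CRAT ran from -0.0756 to 0.12, CROT from -0.272 to 0.139, ACADVL from -0.0286 to 0.104, ACAD9 from -0.0292 to 0.15, ETFA from -0.129 to 0.162, ACAA1 from -0.209 to 0.0612, ACSL3 from -0.0106 to 0.355, ACOT13 from -0.21 to 0.00518 and BDH1 from -0.531 to 0.246. The cause was not tested. The ketone step had medians of -0.63 with array weights and -0.53 to -0.14 with 1 dog left out. No paired analysis was possible because the groups share no animal number.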
